A study of Mus musculus with 6 samples.

Results

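The genes described here are 8 genes of the BMP and TGF-beta pathways, taken by name: the ligands Bmp2, Bmp4 and Bmp7, the receptor Bmpr1a, the intracellular mediators Smad2, Smad4 and Smad7, and the secreted antagonist Grem1. They are 8 of the 34614 protein-coding and lncRNA genes of the annotation, and 6 of them had enough measured cytosines to be among the 9197 gene spans tested. DNA methylation was read by reduced representation bisulfite sequencing (RRBS), an assay of cytosines in CpG-rich fragments, in 3 DM-aKG and 3 control cultures of mouse intestinal organoids, labelled as primary cells. Both groups carry the Apc Min genotype, a truncated allele of the Wnt inhibitor Apc, and both were kept in organoid medium under low glutamine, so by the labels the groups differ in DM-aKG alone, a form of α-ketoglutarate going by the series title, whose dose and time are not given in the labels. The cultures are described as biological replicates, and whether they came from separate mice is not given. Every p-value therefore concerns these 6 cultures and need not extend to mice.

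BMP ligands bind pairs of receptors at the cell surface, Bmpr1a among them, and the receptors phosphorylate Smad proteins that enter the nucleus together with Smad4, the partner shared by the BMP and TGF-beta branches. Smad2 carries the TGF-beta and activin signal, and Smad7 is an inhibitory Smad that both branches induce. In the intestine, BMP signalling is high along the villus, where it favours differentiation and restrains stem cells, and antagonists such as Grem1, made by cells beneath the crypts, keep it low around the stem cells. Promoter methylation is known to accompany silencing, whereas methylation inside a gene body has no fixed relation to expression.

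None of the 7 genes that could be compared between DM-aKG and control organoids passed a test adjusted over the whole table, and Bmpr1a could not be compared. Of the 7 genes with at least 1 cytosine measured in all 6 libraries, 6 had a higher mean level with DM-aKG (Bmp2, Bmp4, Bmp7, Smad2, Smad4 and Grem1) and 1 a lower mean (Smad7). A higher mean with DM-aKG was also the more frequent direction over all 9197 gene spans, at 66.3% of them. The differences of the 6 genes in the gene test ran from -1.43 to 3.92 percentage points. None of the 6 passed limma's test with Benjamini-Hochberg adjustment over all gene spans (smallest adjusted p = 0.784). The same test called 0 of 9197 gene spans (0.0%), and 4.94% had an unadjusted p under 0.05 with a higher and 1.29% with a lower level in DM-aKG.

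A level is the percent of reads that were methylated at a cytosine, as the authors deposited it. No deposited value lies from 1 to 39, so a 0 stands for a level under 40% or for no reading, and it was taken as no value. The levels below are therefore those of cytosines at 40% or more in every library, called complete sites, with an unknown number of reads behind each. Over all 272327 complete sites the libraries averaged 88.6% ± 0.282 with DM-aKG and 87.5% ± 0.731 in controls (SD, n = 3 each), a difference of 1.05 points (two-sided p = 0.1 by exact permutation, the lowest that 3 against 3 can reach). Values were present at 87.4% to 91.6% of the 286 positions listed at the 8 genes, depending on the library, against 83.7% to 88.6% of all positions used. Control replicate 1 had the lowest mean of the 6 libraries, 86.7%. Of 10 marker genes of intestinal epithelium, 5 were measured, and their mean lay from 88.7% to 88.9% in the DM-aKG libraries and from 88.9% to 91.0% in the controls. Of 7 fibroblast markers 5 were measured, with means from 81.4% to 84.5% with DM-aKG and from 77.7% to 80.2% in controls. Of 5 immune markers 2 were measured, with means from 80.6% to 84.5% and from 75.5% to 82.3%, and of 4 endothelial markers 1, from 89.8% to 90.4% and from 88.1% to 91.6%, DM-aKG first. Methylation of marker genes is not their expression, so the cell makeup was not checked by it, and the part of the makeup in the results was not tested.

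The promoters of 3 genes are shown, and the table reports few or no positions in them. RefSeq promoter windows on GRCm38.p6, from 250 bases before to 50 after the transcription start, were at hand for 3 of the 8 genes, all on the minus strand, and are printed 5′ to 3′ with every CG in capitals, since CG is the site of methylation in these cells.
Bmp4 (chr14:46390620-46390919): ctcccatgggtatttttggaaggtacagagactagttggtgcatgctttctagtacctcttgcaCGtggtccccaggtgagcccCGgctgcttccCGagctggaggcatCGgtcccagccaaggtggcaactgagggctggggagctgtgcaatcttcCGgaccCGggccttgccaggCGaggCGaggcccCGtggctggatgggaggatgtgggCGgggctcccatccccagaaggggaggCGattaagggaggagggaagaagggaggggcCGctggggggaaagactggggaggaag
Bmpr1a (chr14:34502497-34502796): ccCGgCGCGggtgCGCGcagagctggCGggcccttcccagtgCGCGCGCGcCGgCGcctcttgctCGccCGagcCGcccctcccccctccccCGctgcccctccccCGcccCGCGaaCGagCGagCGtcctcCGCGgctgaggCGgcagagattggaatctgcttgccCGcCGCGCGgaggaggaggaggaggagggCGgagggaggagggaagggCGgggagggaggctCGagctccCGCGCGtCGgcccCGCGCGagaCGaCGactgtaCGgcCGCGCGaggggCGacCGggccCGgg
Grem1 (chr2:113758599-113758898): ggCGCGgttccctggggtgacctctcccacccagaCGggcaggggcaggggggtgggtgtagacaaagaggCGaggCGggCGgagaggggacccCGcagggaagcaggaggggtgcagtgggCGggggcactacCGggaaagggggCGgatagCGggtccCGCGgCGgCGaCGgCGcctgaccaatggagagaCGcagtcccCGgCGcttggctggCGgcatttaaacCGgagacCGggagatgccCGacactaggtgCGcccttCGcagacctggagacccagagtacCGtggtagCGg

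The Bmpr1a window holds 48 CG and the Grem1 window 28, and the table lists no position in either. The Bmp4 window holds 12 CG, and the table lists 4 positions in it, the cytosines on both strands of the CG at bases 96 and 97 and the CG at bases 110 and 111 of the window, 140 to 155 bases upstream of the start. All windows of the RefSeq table had a CG in 94.6% of cases, with a median of 7, and 52.8% held CCGG, the recognition sequence of MspI, which this assay commonly uses (CG lies inside CCGG, and both read the same on either strand). The Bmp4 window held CCGG 3 times, and those of Bmpr1a and Grem1 4 times each. Of 18212 promoter windows in the rows used, 787 (4.32%) had a listed position. A window with none was either not read or below 40% in every library, and the table does not separate these.

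At the 4 Bmp4 promoter positions DM-aKG replicates 1, 2 and 3 had a value at 1, 2 and 4 of them, against 0, 3 and 0 in control replicates 1, 2 and 3. Base 110 was at 52% and 47% in DM-aKG replicates 1 and 3, with no value in any control. Base 111, its partner on the other strand, was at 56% and 56% in DM-aKG replicates 2 and 3 and at 57% in control replicate 2. Base 96 was at 47% in DM-aKG replicate 3 and at 50% in control replicate 2, and base 97 at 50% and 56% in DM-aKG replicates 2 and 3 and at 43% in control replicate 2. These levels ran from 43% to 57%, toward the low end of the values in the table, which holds none under 40%. None of the 4 positions was complete, and no comparison of levels was made there.

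**Figure D1:**
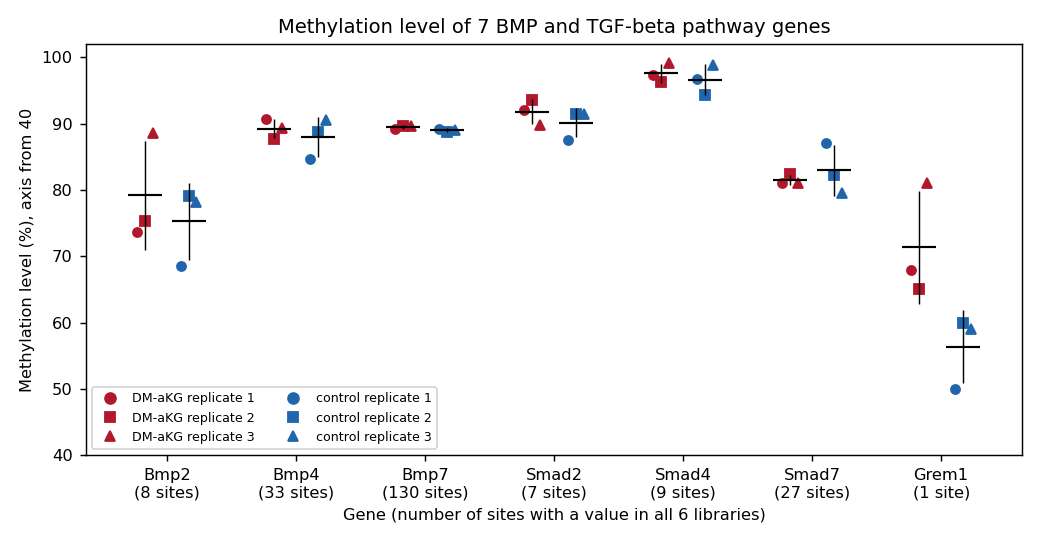
Methylation level (%, vertical axis from 40) of 7 pathway genes (horizontal axis, with the number of complete sites) in 3 DM-aKG and 3 control libraries. Points are libraries, horizontal bars the group means and vertical lines the SD; the groups overlap at 6 genes and lie apart at the single site of Grem1.

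Bmp2, a ligand whose level is known to be higher in the differentiated epithelium, lies on chromosome 2 at 133552159-133562896. It was at 73.6%, 75.3% and 88.6% in DM-aKG replicates 1, 2 and 3, against 68.5%, 79.1% and 78.1% in control replicates 1, 2 and 3, over 8 complete sites. DM-aKG replicate 3 was the highest library and control replicate 1 the lowest, and the groups overlapped. The means were 79.2% ± 8.23 and 75.3% ± 5.87 (SD, n = 3 each), a difference of 3.92 points with a 95% interval from -7.57 to 15.4 (limma adjusted p = 0.825). Leaving out DM-aKG replicate 3 gave -0.813 points, and leaving out control replicate 1 gave 0.542.

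Bmp2 held the largest gap between the means of its clusters among the 8 genes. The 3 complete sites from 133560915 to 133560953, near the high-coordinate end, were at 98.3%, 100% and 100% with DM-aKG and at 93.3%, 91.3% and 100% in controls. The 5 complete sites from 133553452 to 133553546 were at 58.8%, 60.4% and 81.8% with DM-aKG and at 53.6%, 71.8% and 65.0% in controls. The first cluster was above the second in all 6 libraries, by 18.2 to 39.6 points with DM-aKG and by 19.5 to 39.7 in controls. Neither cluster passed the test between groups, with differences of 4.56 points (limma adjusted p = 0.833) and 3.53 points (adjusted p = 0.947), adjusted over all 32358 site clusters of the table. The first value was 2.78 once control replicate 2 was left out and 7.11 once control replicate 3 was.

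The partly methylated stretch of Bmp2 counts 14 listed positions, from 1.2 to 1.4 kb inside the span, and only 5 of them were complete. DM-aKG replicates 1, 2 and 3 had values at 11, 11 and 14 of the 14, against 5, 13 and 12 in control replicates 1, 2 and 3. DM-aKG replicate 3 was the highest of the 6 libraries at 12 of the 14 positions, and its values reached 94%. Control replicate 1 had its 5 values between 42% and 70%, and the other positions were missing in it. With control replicate 1 left out and the 12 sites complete in the other 5 libraries used, Bmp2 was at 72.7% with DM-aKG and 71.5% in controls, 1.24 points higher with DM-aKG. Leaving out DM-aKG replicate 3 thus moved the value of Bmp2 by more than the groups differed.

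**Figure D2:**
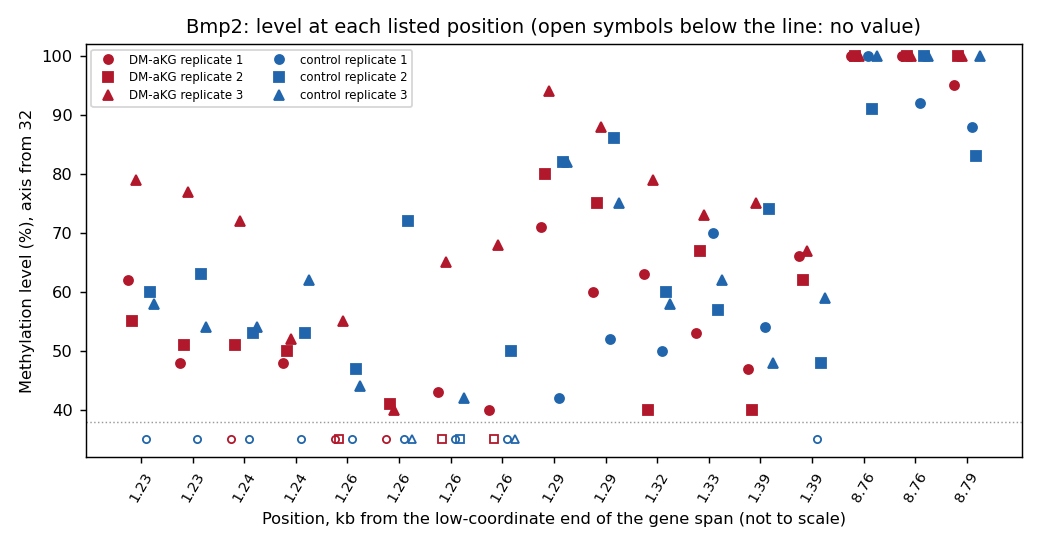
Methylation level (%, vertical axis from 32) at the 17 listed positions of Bmp2 (horizontal axis, kb from the low-coordinate end of the gene span, not to scale) in the 6 libraries; open symbols under the dotted line mark positions with no value. The 14 positions at 1.2 to 1.4 kb spread between 40% and 94%, with DM-aKG replicate 3 highest at 12 of them, and the 3 positions near 8.8 kb sit at 83% to 100%.

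Bmp4, a ligand made mainly by the mesenchyme of the villus, lies on chromosome 14 at 46383525-46390669. All 33 complete sites lie 6070 to 6540 bases downstream of the transcription start, toward the end of the gene, and all of them are also within 1000 bases of the lncRNA Gm15217, so the value cannot be given to Bmp4 alone. The level was 90.6%, 87.7% and 89.4% in DM-aKG replicates 1, 2 and 3, against 84.6%, 88.7% and 90.5% in control replicates 1, 2 and 3. Control replicate 1 was the lowest library and the other 5 lay within 3 points. The means were 89.2% ± 1.47 and 88.0% ± 3.04 (SD, n = 3 each), with a difference of 1.27 points and a 95% interval from -3.03 to 5.57 (limma adjusted p = 0.875). Leaving out control replicate 1 gave -0.404 points, and leaving out control replicate 3 gave 2.57.

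The 2 clusters of Bmp4 sites were unlike in spread. The larger, 29 sites from 46384129 to 46384452, was at 88.3% ± 1.69 with DM-aKG and 87.7% ± 2.47 in controls (SD, n = 3 each). The other, 4 sites from 46384553 to 46384599, was at 97.3%, 97.0% and 94.5% with DM-aKG, against 79.8%, 97.3% and 93.0% in controls. Its difference of 6.25 points (limma adjusted p = 0.846) was 1.13 points without control replicate 1, the only library below 93%. One site of that cluster, at 46384553, had 100%, 98% and 100% with DM-aKG and 76%, 95% and 84% in controls. In the larger cluster the site at 46384329 went the other way, with 85%, 85% and 77% with DM-aKG and 91%, 87% and 91% in controls. Both sites were picked among those whose groups did not overlap, 3 higher and 1 lower of 33, against 4.63% and 2.5% of all sites. Neither passed limma's test adjusted over all sites (adjusted p = 0.872 for both). The first differed by 14.3 points and the second by -7.33, or by -4.67 once DM-aKG replicate 3 was left out. On the other strand of the same CpGs, 46384554 differed by 10 points and 46384330 by -3, and the groups overlapped at both.

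Bmp7, a ligand that can pair with Bmp2 or Bmp4, lies on chromosome 2 at 172868012-172940321 and had the most data, 130 complete sites of 153 listed. Of the complete sites, 18 lie in the flank outside the span. The level of Bmp7 was the steadiest of the 7 genes, at 89.1%, 89.6% and 89.7% in DM-aKG replicates 1, 2 and 3, against 89.2%, 88.7% and 89.1% in control replicates 1, 2 and 3. The groups overlapped, since DM-aKG replicate 1 lay below control replicate 1. The means were 89.5% ± 0.291 and 89.0% ± 0.282 (SD, n = 3 each), a difference of 0.477 points with a 95% interval from -1.62 to 2.58 (limma adjusted p = 0.904). Over the sites inside the span alone the difference was 0.595 points. With library means made equal, the difference over all 130 sites was -0.574 points, since that scaling takes 1.05 points off every difference.

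Along the Bmp7 span and its flanks there were 15 clusters of at least 3 complete sites, with gaps of at most 100 bases inside a cluster. Cluster means ran from 73.8% to 95.6% with DM-aKG and from 79.2% to 92.4% in controls, and 10 were higher and 5 lower with DM-aKG. The lowest in both groups was a cluster of 3 sites from 172904687 to 172904783, at 73.7%, 79.0% and 68.7% with DM-aKG and at 81.3%, 74.3% and 82.0% in controls. The largest difference was at 8 sites from 172882435 to 172882494, with 75.1%, 87.5% and 84.5% with DM-aKG and 89.1%, 85.3% and 91.0% in controls. DM-aKG replicate 1 was the lowest library there, and the groups overlapped. The difference was -6.08 points (limma adjusted p = 0.833) and -2.46 once DM-aKG replicate 1 was left out.

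In 1 of the 15 clusters the groups lay apart. Its 12 sites, from 172896881 to 172897062, were at 91.4%, 92.3% and 91.5% with DM-aKG and at 90.4%, 89.8% and 87.6% in controls, a difference of 2.44 points (limma adjusted p = 0.833). It was the only such cluster among the 25 of all 8 genes, 1 higher and 0 lower with DM-aKG. Of all 32358 clusters, 8.37% lay apart with a higher and 2.51% with a lower level in DM-aKG, and 1 cluster (0.00309%), none of the 25, passed the adjusted threshold.

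Single sites of Bmp7 with groups apart were 3 higher and 2 lower of 130, against 4.63% higher and 2.5% lower of all sites. The site with the largest difference, at 172869997, had 81%, 93% and 84% with DM-aKG and 75%, 66% and 69% in controls, 16.0 points higher with DM-aKG (limma adjusted p = 0.808). The site at 172867537, in the flank outside the span, had 71%, 74% and 68% with DM-aKG and 76%, 87% and 86% in controls, a difference of -12.0 points (adjusted p = 0.846). Neither passed, and their clusters as a whole differed by 3.07 and -0.259 points. On the other strand of the CpG at 172867537, the site at 172867538 differed by 5 points and the groups overlapped. The lncRNA Gm40010 overlaps the span or lies within 1000 bases of it, and none of the complete sites was within 1000 bases of Gm40010.

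**Figure D3:**
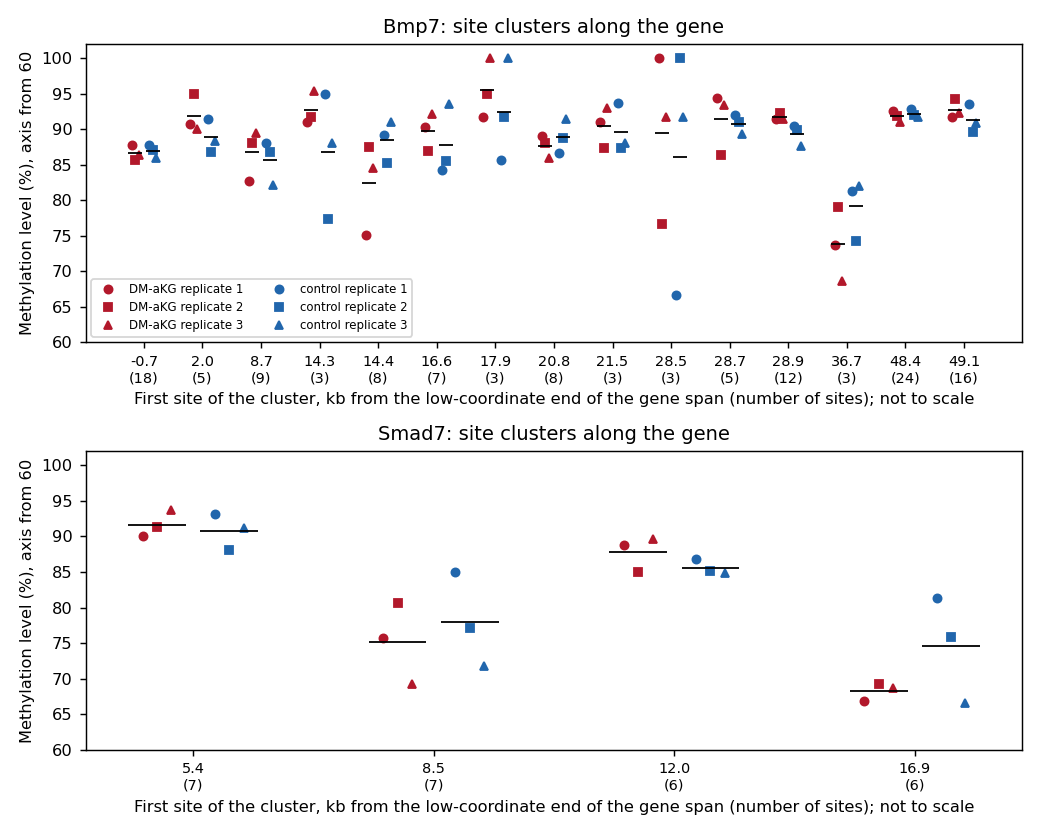
Methylation level (%, vertical axes from 60) of the site clusters of Bmp7 (15 clusters) and Smad7 (4 clusters), ordered along each gene (horizontal axes, kb of the first site from the low-coordinate end of the span with the number of sites, not to scale). Points are the 6 libraries and bars the group means; the groups overlap in every cluster but the Bmp7 cluster of 12 sites at 28.9 kb, and Smad7 alternates between clusters near 90% and clusters under 80%.

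Bmpr1a, a type I receptor for BMP ligands, lies on chromosome 14 at 34411061-34503336 and could not be compared. The table lists 5 positions in its span, from 34426083 to 34460310, and none was complete. DM-aKG replicates 1, 2 and 3 had values at 2, 3 and 0 of them, against 3, 3 and 5 in control replicates 1, 2 and 3. All 16 values were 100%. These 5 positions were thus at 100% wherever they had a value, in both groups, and they do not give the level of the whole gene.

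Smad2, the mediator of TGF-beta and activin signals, lies on chromosome 18 at 76241090-76311748. It was at 92.0%, 93.6% and 89.9% in DM-aKG replicates 1, 2 and 3, against 87.6%, 91.4% and 91.4% in control replicates 1, 2 and 3, over 7 complete sites. The groups overlapped and control replicate 1 was lowest. The means were 91.8% ± 1.86 and 90.1% ± 2.23 (SD, n = 3 each), a difference of 1.67 points with a 95% interval from -2.17 to 5.51 (limma adjusted p = 0.784). Without control replicate 1 it was 0.381 points.

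The difference of Smad2 came mostly from 1 site, at 76271929, singled out after its values were seen. It had 82%, 87% and 78% with DM-aKG and 45%, 83% and 82% in controls, so control replicate 1 alone was low. The cluster of 5 sites, from 76262451 to 76262518, was at 92.2% ± 1.64 with DM-aKG and 92.9% ± 1.36 in controls (SD, n = 3 each), a difference of -0.667 points (limma adjusted p = 0.952), and 0.233 once DM-aKG replicate 3 was left out or 0.1 once control replicate 1 was. At 76271873 the groups lay apart by little, with 99%, 100% and 99% with DM-aKG and 96%, 98% and 96% in controls (limma adjusted p = 0.872). That site was picked because its groups lay apart, 1 higher and 0 lower of 7, against 4.63% and 2.5% of all sites.

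Smad4, the partner shared by both branches and a tumour suppressor of the intestine, lies on chromosome 18 at 73634790-73703791 and had the highest level of the 7 genes. It was at 97.3%, 96.2% and 99.1% in DM-aKG replicates 1, 2 and 3, against 96.7%, 94.3% and 98.9% in control replicates 1, 2 and 3, over 9 complete sites. The groups overlapped. The means were 97.6% ± 1.46 and 96.6% ± 2.28 (SD, n = 3 each), a difference of 0.926 points with a 95% interval from -2.73 to 4.58 (limma adjusted p = 0.884). Leaving out control replicate 2 gave -0.222 points, and leaving out DM-aKG replicate 3 gave 0.148. Its cluster of 7 sites, from 73687409 to 73687520, was at 97.7%, 96.1% and 98.9% with DM-aKG and at 96.6%, 97.4% and 98.6% in controls, a difference of 0.0476 points (limma adjusted p = 0.997), a value whose sign changed with single libraries left out.

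Smad7, the inhibitory Smad, lies on chromosome 18 at 75367365-75395935 and was the 1 gene with a lower mean in DM-aKG. It was at 81.1%, 82.4% and 81.1% in DM-aKG replicates 1, 2 and 3, against 87.1%, 82.3% and 79.5% in control replicates 1, 2 and 3, over 27 complete sites. The DM-aKG values lay inside the range of the controls. The means were 81.5% ± 0.738 and 83.0% ± 3.86 (SD, n = 3 each), a difference of -1.43 points with a 95% interval from -6.28 to 3.42 (limma adjusted p = 0.864). Leaving out control replicate 1, the highest library, gave 0.648 points, and leaving out control replicate 3 gave -3.17.

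Smad7 alternated along its length. Clusters from 75372786 to 75372964 and from 75379381 to 75379452 were at 91.7% ± 1.89 and 87.8% ± 2.49 with DM-aKG, and at 90.8% ± 2.52 and 85.6% ± 1.07 in controls (SD, n = 3 each). The cluster between them, from 75375905 to 75376062, was at 75.2% ± 5.66 with DM-aKG and 78.0% ± 6.68 in controls. The one farthest along, 6 sites from 75384288 to 75384409, was the lowest of the gene, at 66.8%, 69.2% and 68.7% with DM-aKG and at 81.3%, 75.8% and 66.5% in controls. The first of these clusters was above the last in all 6 libraries, by 22.1 to 25.05 points with DM-aKG and by 11.8 to 24.6 points in controls.

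That last cluster also had the largest difference of Smad7, -6.33 points (limma adjusted p = 0.833), and the groups overlapped because control replicate 3 was the lowest of all. Leaving out control replicate 1 gave -2.94 points, and leaving out control replicate 3 gave -10.4. The site at 75375978 had 69%, 88% and 78% with DM-aKG and 93%, 92% and 91% in controls, a difference of -13.7 points (limma adjusted p = 0.872) that was -9 once DM-aKG replicate 1 was left out. The site at 75379441 had 87%, 91% and 93% with DM-aKG and 76%, 82% and 84% in controls, a difference of 9.67 points (limma adjusted p = 0.833). On the other strand of the same CpGs, 75375977 differed by -2 points and 75379442 by 7, and the groups overlapped at both. The sites at 75375978 and 75379441 were picked among those whose groups did not overlap, and neither passed. Such sites were 2 higher and 1 lower of 27, against 4.63% and 2.5% of all sites.

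Grem1, the antagonist that binds Bmp2, Bmp4 and Bmp7, lies on chromosome 2 at 113748675-113758648 and was measured at 1 complete site, 4749 bases downstream of its transcription start, at 113753899. That site was at 68%, 65% and 81% in DM-aKG replicates 1, 2 and 3, against 50%, 60% and 59% in control replicates 1, 2 and 3. All 3 DM-aKG libraries were above all 3 controls. The means were 71.3% ± 8.50 and 56.3% ± 5.51 (SD, n = 3 each), 15 points apart with an unadjusted 95% interval from 1.2 to 28.8. The site did not pass limma's test adjusted over all sites (adjusted p = 0.872, unadjusted p = 0.0384). By exact permutation the two-sided p was 0.1, again the lowest possible. The other listed position, 29 bases away, had a value only in control replicate 2, 67%, so the value stands for a single cytosine and not for the gene.

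By the same exact permutation test the p of the other genes was 0.6 for Bmp2, Bmp4 and Smad4, 0.2 for Bmp7, 0.4 for Smad2 and 0.8 for Smad7. In both groups the order of the levels was Smad4, Smad2, Bmp7, Bmp4, Smad7, Bmp2 and Grem1. The values of Smad4 lay above those of every other gene of the 7 in all 6 libraries. Smad2, Bmp7 and Bmp4 overlapped in their library values, as did Bmp4 and Smad7, Smad7 and Bmp2, and Bmp2 and Grem1. Against all 9197 gene spans, whose median level was 89.0%, Smad4 stood at the 97.5th and Bmp2 at the 8.71st percentile. The levels come from different stretches of each gene and carry no order of whole genes.

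Counted over single sites, the shares in these genes were near those of the whole table. Of their 215 complete sites 116 had a higher and 89 a lower mean with DM-aKG, with a median difference of 0.667 points, which is also the median of all 272327 sites. The groups lay apart with higher levels in DM-aKG at 10 of the 215 sites (4.65%), against 4.63% of all sites, and with lower levels at 4 (1.86%), against 2.5% of all sites. An unadjusted limma p under 0.05 was reached by 8 sites higher and 3 lower with DM-aKG, against 3.54% and 1.89% of all sites. No site of the 215 passed the adjusted threshold (smallest adjusted p = 0.660), nor did any of all sites (0.0%). Sites with a mean under 80% made up 16.7% of the 215 and 20.9% of all sites. At 84 pairs of complete sites on adjacent bases, the sites of a pair differed by 7.38 points on average in these genes. Over all 105028 such pairs the average was 6.89 points. Differences of that size thus occurred within a library between adjacent cytosines. Such a pair is commonly the cytosines on both strands of 1 CpG, but in a run of CGCG it can join neighbouring CpGs.

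The wider pathway was taken from a list of 119 genes in 6 roles, of which 73 lie in the rows used and 49 had 3 or more complete sites. None of the 49 passed the adjusted threshold (smallest adjusted p = 0.764), and 1 had an unadjusted p under 0.05 with a higher and 0 with a lower level in DM-aKG, against 4.94% and 1.29% of all gene spans. The median difference of the 49 was 1.08 points, 31 higher and 16 lower, against 0.733 points and 66.3% higher over all gene spans. The groups lay apart in 3 genes, all higher with DM-aKG, against 11.3% of all gene spans higher and 2.53% lower. With library means made equal the median of the 49 was 0.0328 points, 25 higher and 24 lower, and that of all gene spans -0.317.

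By role, the 15 ligands had a median difference of 0.477 points (10 higher and 4 lower). The 8 receptors had -0.675 (3 and 5), the 5 Smads 0.654 (3 and 2) and the 9 intracellular regulators -0.0789 (4 and 5). The 3 transcription targets had 1.28 points (3 and 0). The 9 extracellular antagonists and modulators had 2.19 points, 8 higher and 0 lower, and with library means made equal 1.14 points, 8 higher and 1 lower. Under that scaling the medians were -0.574 points for ligands, -1.73 for receptors, -0.396 for Smads, -1.13 for intracellular regulators and 0.227 for targets. No member of any role passed, and differences between roles were not tested.

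The 3 genes with groups apart were Smurf2, Ltbp2 and Eng. Smurf2, a ubiquitin ligase that Smad7 brings to the receptors, was at 96.5%, 98.3% and 98.6% with DM-aKG and at 93.2%, 95% and 95.6% in controls, and it was the 1 gene with an unadjusted p under 0.05 (0.00770, limma adjusted p = 0.764). Its difference of 3.23 points rested on sites in the flanks, since over the sites inside the gene span alone it was 0.0952 points (limma adjusted p = 0.977). Ltbp2, a protein of the latent TGF-beta binding family, was at 82.1%, 83.0% and 86.4% with DM-aKG and at 76.8%, 81.2% and 81.0% in controls, and its difference of 4.15 points was 2.71 once control replicate 1 was left out. Eng, a TGF-beta co-receptor known from endothelium, was at 89.0%, 88.9% and 89.4% with DM-aKG and at 85.4%, 87.4% and 87.5% in controls. Both Ltbp2 and Eng had a limma adjusted p of 0.764, and with library means made equal the difference of 2.38 points of Eng was 1.33.

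Other genes that the naming rule picked, from those with the smallest p in each role, overlapped between the groups. Inha, a subunit of inhibin, differed by 8.10 points and Gdf11, a ligand of the activin branch, by 1.09. Amhr2, the receptor of anti-Müllerian hormone, differed by 2.75 points and the deubiquitinase Usp15 by 1.92. Smad5, which carries BMP signals, differed by -3.14 points and Smad9, which also does, by 0.654. The targets Runx2 and Cdkn1a differed by 2.14 and 1.08 points. Leaving out DM-aKG replicate 3 gave -1.05 points for Smad9, 0 for Amhr2, 0.511 for Gdf11 and 1.11 for Runx2. Leaving out control replicate 1 gave -1.36 for Smad5, and leaving out control replicate 2 gave 0.208 for Cdkn1a.

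**Figure D4:**
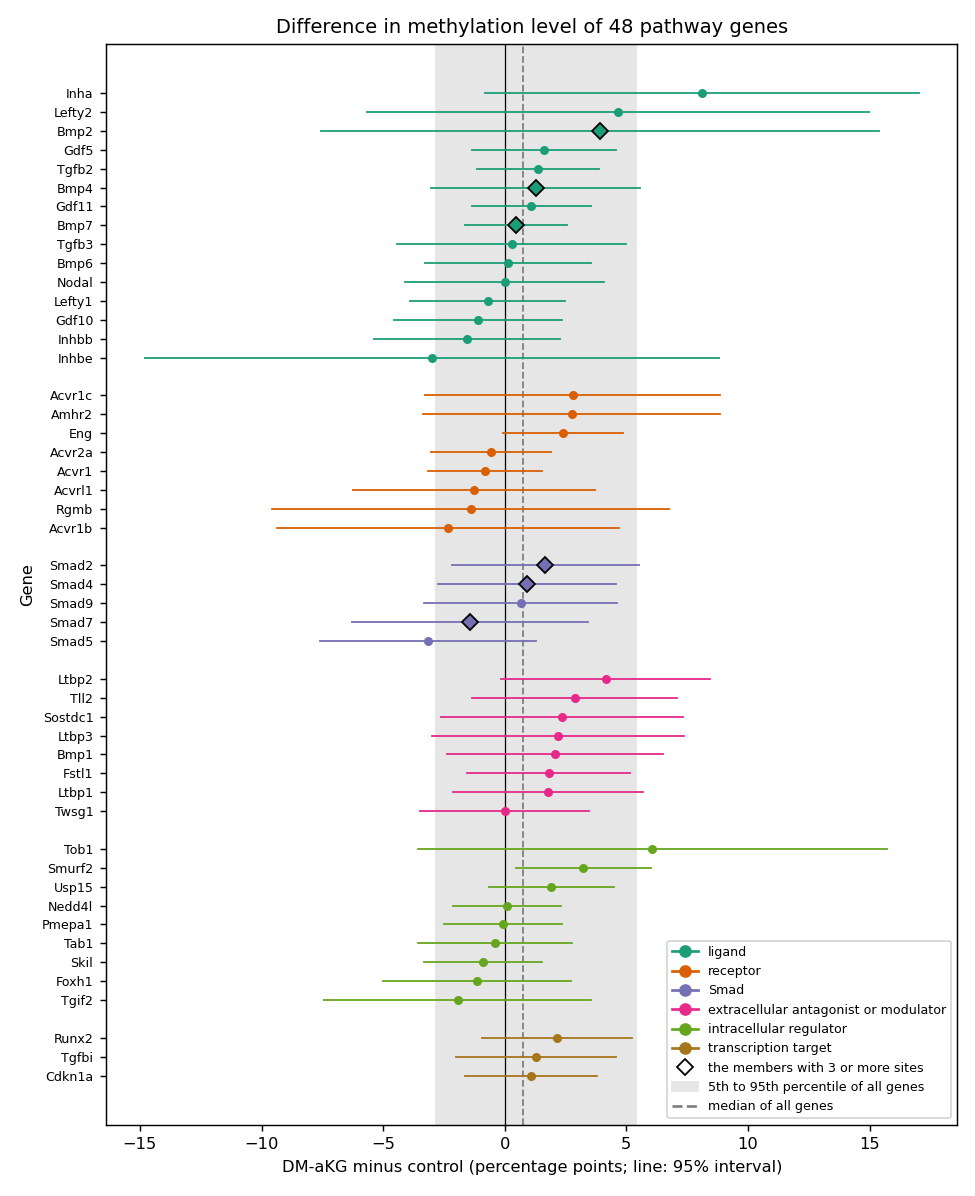
Difference in methylation level (horizontal axis, DM-aKG minus control, percentage points) of 48 of the 49 pathway genes with 3 or more complete sites, grouped by role; points are differences, lines 95% intervals from limma on the percent scale, and diamonds Bmp2, Bmp4, Bmp7, Smad2, Smad4 and Smad7. The grey band spans the 5th to 95th percentile of all gene spans (-2.83 to 5.39 points) and the dashed line their median, 0.733; all 6 diamonds lie inside the band.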

How the data were processed

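The authors deposited 1 table with the percent methylation of each listed cytosine in 6 libraries, rounded to whole numbers and without coverage, so the depth is unknown. Per the submitters' processing notes, the build was mm10 and the tools CASAVA 1.8 and Novoalign 3.08.02; the methylation caller is not given in the sources used here. Rows 1 to 390208 of 813850 were used, since the libraries are out of register after them. Of 4550 listed positions inside RefSeq promoter windows, 99.9% fall on C or G when the start column is counted from 1, and positions are given so. Gene spans (GRCm38.p6, without exons) were extended by 1000 bases each side, and gene levels are means over at least 3 complete sites, so exons, introns and UTRs were not told apart.

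Gene levels were tested with limma 3.58.1 (R 4.3.3) on log2 odds with an offset of 0.01, sites and clusters on the percent scale, with Benjamini-Hochberg adjustment over the whole table and a threshold of 0.05; intervals come from limma on the percent scale. Clusters were meant to be adjusted over these genes alone; adjustment over all clusters replaced it after the data were seen. The tests were tried on simulated data. The genes named are the 8 members, the 2 others of each role with the smallest p, the sites of largest difference each way with groups apart, and the cluster of largest difference. One gene that the rule picked is not reported here. The members, lists and tests were chosen with earlier results of these data known. Single replicates were left out in turn, and other scales, flanks, site minimums, zeros and pairings were tried.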

Additional observations from a re-analysis of the deposited data

How the results depend on the processing

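Across 278 alternative values of the 8 genes, their named sites and clusters, none passed the adjusted threshold (smallest adjusted p = 0.432), and 16 changed sign. Where zeros were read as levels, the differences were -0.422 points for Bmp4, -0.789 for Bmp7, -0.157 for Usp15 and -13.2 for Cdkn1a, the pathway list's median was -0.157, and those of Bmp2 and Smad7 were 9.16 and -8.96. With library means made equal they were -0.574 for Bmp7, -0.125 for Smad4, -0.396 for Smad9 and -1.0 for the Smad4 cluster, and 0.0328 for the pathway median. Without control replicate 1, over sites complete in the other 5 libraries (added after the data were seen), Bmp4 was at -0.456 and Smad7 at 0.423. With single replicates left out the differences ranged from -0.813 to 6.69 points for Bmp2, -0.404 to 2.57 for Bmp4, -0.222 to 2.06 for Smad4, -3.17 to 0.648 for Smad7, -1.37 to 0.233 for the Smad2 cluster, -0.595 to 0.762 for the Smad4 cluster and -1.05 to 1.52 for Smad9, and the pathway median from 0.324 to 1.71. Gene spans past the threshold were 1 on untransformed percent, 1 with an offset of 0.05, 1 with at least 1 site and 7 with zeros as levels. Sites past it were 407 on log2 odds, 14 with at least 2 values per group, 2379 with zeros as levels and 0 to 9 with single replicates left out. The cause of these shifts was not tested. Without flanks Smad5 had too few sites for a value, and Smurf2 was at 0.0952 points. Deviations of same-numbered DM-aKG and control libraries had correlations from -0.0276 to 0.0652 over gene spans, and those of differently numbered libraries from -0.0871 to 0.0903. These ranges cannot tell whether the numbers pair the cultures, so a pairing stays unknown. With a replicate block 0 gene spans and 0 sites passed. A cytosine under 40% in any library has no value there, so losses to below that level are outside these comparisons, and 3 libraries a group limit the intervals to a median half-width of 3.71 points.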
